A study of Mus musculus with 4 samples.

Results

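The genes described here encode 10 subunits of the Polycomb complexes, namely Ezh2, Ezh1, Eed, Suz12 and Jarid2 of Polycomb repressive complex 2 (PRC2) and Rnf2, Ring1, Cbx7, Pcgf6 and Kdm2b of Polycomb repressive complex 1 (PRC1). They were taken by gene symbol, with no threshold on their levels, and all 10 were found among the 20714 symbols listed in both assays. The data comprise 4 libraries of whole mouse blastocysts, 2 of RNA-seq and 2 of Ribo-seq. RNA-seq was a Smart-seq2 library of polyadenylated RNA and gives the mRNA level. Ribo-seq was a low-input protocol (Ribo-lite) with cycloheximide and RNase I and gives ribosome-protected fragments (RPF), the footprints of ribosomes on coding sequence. All embryos were wild type, and none were given an experimental treatment. Their mothers were injected with the hormones PMSG and hCG to induce ovulation, as the authors' methods state. The embryos came from C57BL/6J females of 4 weeks of age mated to PWK/PhJ males, whereas the sample tags give the cross as C57BL/6N x PWK. They were collected at the 8-cell stage, cultured in KSOM to the blastocyst stage, and freed of the zona pellucida with acidic Tyrode's solution. The embryos therefore spent the last part of preimplantation growth in culture, and the libraries hold every lineage of the blastocyst together.

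Polycomb complexes keep developmental genes silent through marks on histones. PRC2 methylates histone H3 at lysine 27 (H3K27). Ezh2 or its paralog Ezh1 is the catalytic subunit, Eed binds the methylated histone, Suz12 is the scaffold, and Jarid2 is an accessory subunit that helps to bring the complex to chromatin. PRC1 places ubiquitin on histone H2A (H2AK119) through Rnf2 (RING1B) or its paralog Ring1 (RING1A). A Cbx protein such as Cbx7 reads the methylated histone in canonical PRC1, a Pcgf protein pairs with the E3 ligase and defines the PRC1 type (Pcgf6 belongs to a variant form), and Kdm2b binds unmethylated CpG islands within the variant complex that holds Pcgf1. In early mouse embryos, Polycomb marks inherited from the oocyte are known to silence some maternal alleles.

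Levels are FPKM, the fragments per kilobase of transcript (RNA-seq) or of coding sequence (Ribo-seq), scaled to the mapped fragments of the library. Levels of different genes can be compared within an assay, with a limit for short coding sequences. Low values were read with an effective length, which is shorter than the sequence itself. In Ribo-seq replicate 1, the Cbx7 level stands for 9.09 footprints with it and 15.7 without, beside 177 and 187 for Jarid2. By that length, short genes such as Cbx7 (477 bases) are raised more than long ones such as Jarid2 (3705 bases). The part of this in the order by RPF and in RPF minus mRNA was not tested. Between 9012 and 9737 symbols reached 1 FPKM in a library, and the Spearman correlation between replicates across genes was 0.940 for RNA-seq and 0.898 for Ribo-seq. From the steps between low values, the RNA-seq replicates held about 5457504 and 5173069 fragments, and the Ribo-seq replicates about 533638 and 484200 footprints. At that depth, 1 footprint on a coding sequence of 1000 bases is worth 2.34 and 2.58 FPKM, and values under 3 footprints are not read here as levels. Trophectoderm markers (Cdx2, Gata3, Krt8, Krt18) summed to 2725 to 5552 FPKM in the libraries and all 4 were above 0 in each. The inner cell mass markers Pou5f1, Nanog, Sox2 and Fgf4 were also above 0 in each library, with sums of 141 and 57.7 FPKM in RNA-seq and 699 and 815 FPKM in Ribo-seq. Primitive endoderm markers summed to 9.34 to 154 FPKM, with Gata6 and Pdgfra above 0 in all libraries. Markers of cumulus cells and blood were at 0, those of the oocyte summed to at most 1.92 FPKM, and of the fibroblast markers only Thy1 was above 0, at 3.28 and 14.4 FPKM in Ribo-seq.

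The 5 PRC2 genes were present in both assays, with Eed at the top and Ezh1 at the bottom. Eed mRNA was at 38.1 and 28.8 FPKM and Eed RPF at 94.9 and 97.2 FPKM, which corresponds to 57 and 53 footprints. Eed thus ranked first of the 10 genes in both assays, above 91.8% of symbols by mRNA and 90.9% by RPF. Suz12 was at 16.3 and 15.1 FPKM in mRNA and at 90.9 and 66.9 FPKM in RPF (98 and 66 footprints). The catalytic subunit Ezh2 was lower than both partners in every library, at 9.57 and 12.9 FPKM in mRNA and at 42.9 and 47.5 FPKM in RPF, with 47 footprints in each Ribo-seq replicate. The ratio of Eed to Ezh2 was 3.98 and 2.24 in mRNA and 2.21 and 2.05 in RPF, and that of Suz12 to Ezh2 was 1.70 and 1.18 in mRNA and 2.12 and 1.41 in RPF. Jarid2 was at 31.5 and 28.4 FPKM in mRNA and at 94.4 and 64.7 FPKM in RPF, where its long coding sequence of 3705 bases gave 177 and 110 footprints, the most of the 10 genes. The Ribo-seq replicates did not overlap for Jarid2 in counting error (95% Poisson intervals of 81.2 to 110 and 53.3 to 78.1 FPKM). Those of Eed, Ezh2 and Suz12 did overlap. The Jarid2 gap was still not unusual. On the log2 scale it was larger than that of 63.9% of genes with a mean RPF within 2-fold, beside 53.8% for Suz12. Between the RNA-seq replicates, Eed was 1.32-fold higher in replicate 1 and Ezh2 was 1.34-fold higher in replicate 2. These gaps were larger than those of 73.3% (Eed) and 64.4% (Ezh2) of genes with a mean mRNA level within 2-fold. The marker sums of every lineage were higher in replicate 1. They were 2983 and 2725 FPKM for trophectoderm, 141 and 57.7 FPKM for inner cell mass, and 12.5 and 9.34 FPKM for primitive endoderm. In bulk embryos, fewer cells of a lineage and less RNA per cell cannot be told apart, and the part of lineage makeup in these values was not tested.

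**Figure D1:**
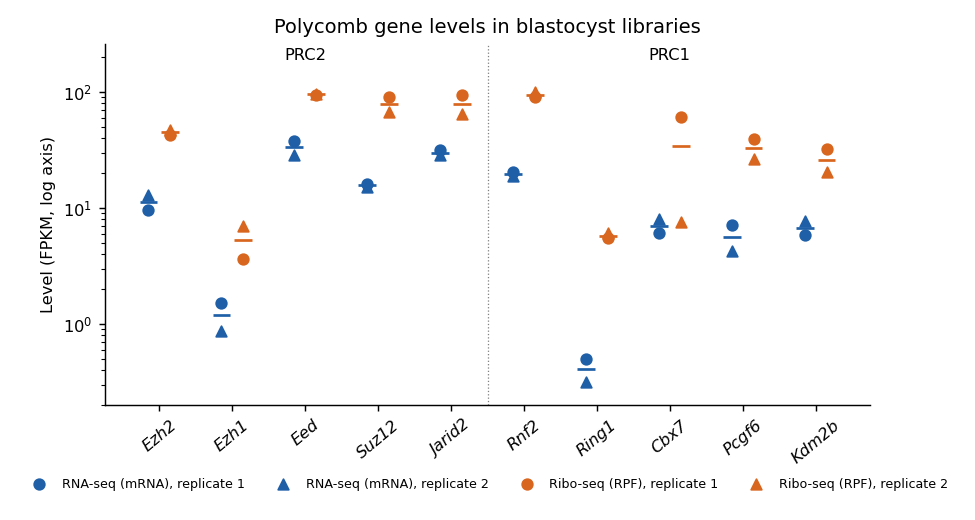
Level of the 10 Polycomb genes in each library, in FPKM on a log axis. Blue marks are RNA-seq and orange marks Ribo-seq, circles are replicate 1, triangles are replicate 2, and short lines are the means of 2 replicates. Eed, Jarid2, Rnf2 and Suz12 lie highest in both assays, Ezh1 and Ring1 lie lowest, and the RPF replicates of Cbx7 lie far apart (61.6 and 7.54 FPKM).

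Ezh2 was far above its paralog Ezh1 in every library. Ezh1 mRNA was at 1.52 and 0.873 FPKM and Ezh1 RPF at 3.65 and 7.03 FPKM, from 4 and 7 footprints. The Ezh2 level was 6.31-fold and 14.7-fold that of Ezh1 in mRNA and 11.8-fold and 6.75-fold in RPF, so Ezh2 made up 86.3% to 93.6% of the summed EZH level in the 4 libraries. The assays overlapped in this share. Because the paralogs have similar proteins, the extent to which short footprints could be exchanged between them was examined on their coding sequences. Only 14 of the 2214 windows of 28 bases in the Ezh2 coding sequence came within 2 mismatches of the Ezh1 coding sequence, or 0.632%. The closest windows, shown here because they are the stretch in which a footprint of one gene most resembles the other, lie near the 3′ end of both coding sequences and differ in the single base in capitals.
Ezh2: gctgatgccctGaagtatgtgggcatcg
Ezh1: gctgatgccctCaagtatgtgggcatcg
The Ezh2 window is at chr6:47480563-47480590 (NCBIM37, minus strand) in exon 20, coding bases 2191 to 2218. The Ezh1 window is at chr11:101054276-101054303 (minus strand) in exon 21, coding bases 2194 to 2221. Reads were allowed up to 2 mismatches in Ribo-seq, so a footprint within these windows can be told apart by its best match only.

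The measured levels of the PRC1 E3 ligases were even more unequal. Rnf2 mRNA was at 20.6 and 18.8 FPKM and Rnf2 RPF at 90.2 and 99.5 FPKM, with 39 footprints in each Ribo-seq replicate. Rnf2 was second to Eed in RPF, and the replicate ranges of these genes overlapped. Ring1 mRNA was at 0.498 and 0.315 FPKM, about 4.98 and 2.99 fragments, and Ring1 RPF at 5.51 and 6.07 FPKM, which is 3 footprints in each replicate (95% Poisson interval 0.619 to 8.77). Ring1 therefore sat at the lowest level that was read as a level. Rnf2 was 41.4-fold and 59.6-fold above Ring1 in mRNA and 16.4-fold above it in both RPF replicates. Its share of the pair was 97.6% and 98.3% in mRNA and 94.2% in both RPF replicates, so the assays did not overlap in this share. Ring1 rests on few fragments in both assays, so the size of these ratios is uncertain. No window of 28 bases was within 2 mismatches between Rnf2 and Ring1. The closest stretch, given here for comparison with the EZH pair, holds 3 mismatches, in capitals.
Rnf2: aacaaAgagtgTcctacctgTcggaaaa
Ring1: aacaaGgagtgCcctacctgCcggaaaa
It lies at chr1:153323457-153323484 (NCBIM37, minus strand) in exon 4 of Rnf2, coding bases 250 to 277, and at chr17:34160111-34160138 (minus strand) in exon 4 of Ring1, coding bases 241 to 268.

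Cbx7, the main Polycomb Cbx protein of pluripotent cells, gave the least certain value. Cbx7 mRNA was at 6.13 and 7.98 FPKM, whereas its RPF was 61.6 FPKM in replicate 1 and 7.54 FPKM in replicate 2. The RPF replicates differed 8.17-fold, and this gap on the log2 scale was larger than that of 97.4% of the 2680 genes with a mean RPF within 2-fold of that of Cbx7. The coding sequence is short (477 bases), and the values rest on about 9 and 1 footprints, with 95% Poisson intervals of 27.9 to 116 and 0.189 to 41.6 FPKM, which overlap. With a longer annotated coding sequence of 756 bases the same levels would stand for 18.3 and 2.03 footprints, and without the correction for effective length for 15.7 and 1.74. No translation level of Cbx7 can be given from replicate 2, which is under 3 footprints.

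Pcgf6 and Kdm2b, which belong to different variant PRC1 complexes, were at intermediate levels. Pcgf6 mRNA was at 7.08 and 4.23 FPKM and Pcgf6 RPF at 39.2 and 26.4 FPKM (18 and 11 footprints). Kdm2b mRNA was at 5.84 and 7.69 FPKM and Kdm2b RPF at 32.1 and 20.3 FPKM (64 and 37 footprints). The ranges of both genes overlapped in each assay. Of the 28-base windows of Kdm2b that lie within a single exon, 15.4% are repeated elsewhere in the genome. Part of its signal could therefore be shared with other places. In the other 9 genes the repeated share was at most 3.41%, in Suz12.

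**Figure D2:**
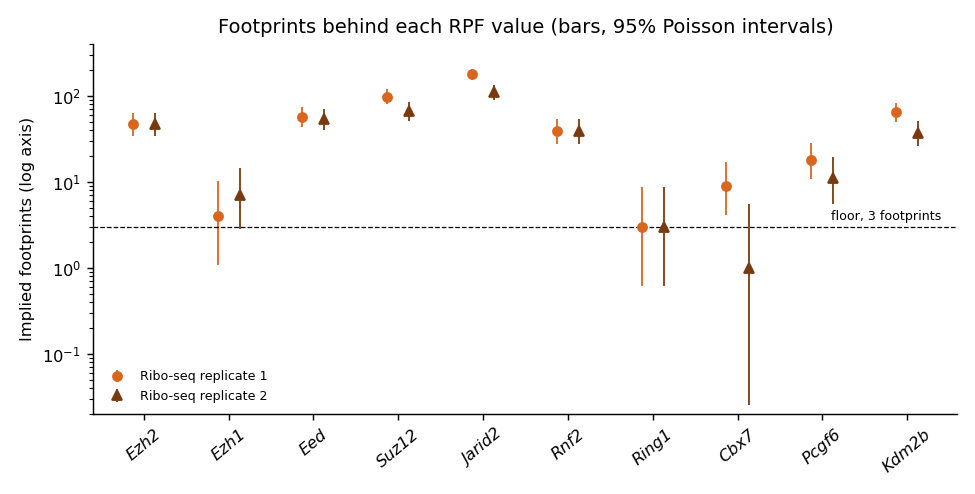
Number of footprints that the RPF value of each Polycomb gene stands for in each Ribo-seq replicate (log axis), with 95% Poisson intervals that cover counting error only. Jarid2 had the most (177 and 110), and Ezh1, Ring1 and Cbx7 had fewer than 10 in each replicate; the dashed line marks the floor of 3 footprints.

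By mRNA, the order was Eed and Jarid2, Rnf2, Suz12, Ezh2, then Cbx7, Kdm2b and Pcgf6, then Ezh1, and last Ring1. The replicate ranges of Eed and Jarid2 overlapped, as did those of Cbx7, Kdm2b and Pcgf6, and every other pair of neighbours was separated. By RPF, Eed, Rnf2, Jarid2 and Suz12 came first and overlapped from one to the next (means of 96.0, 94.9, 79.5 and 78.9 FPKM), Ezh2 followed at 45.2 FPKM, and Cbx7, Pcgf6 and Kdm2b overlapped with their neighbours below it. Ring1 (5.79 FPKM) and Ezh1 (5.34 FPKM) were last and overlapped. Hence the 4 most abundant genes were the same in both assays, and so were the last 2.

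To compare ribosome footprints with mRNA for each gene, log2(FPKM+1) was centred on the median of each library and RPF minus mRNA was fitted with limma over the 8327 genes whose mean reached 1 FPKM in RNA-seq and in Ribo-seq. Calls required a log2 difference of 1 or more either way together with an adjusted p under 0.05. None of the 9 Polycomb genes tested was called in either direction, against 6.65% of all tested genes called higher in RPF, 5.31% called lower and 12% called in either direction. At an unadjusted p under 0.05, 2 of the 9 (Suz12 and Rnf2) and 36.3% of all tested genes were found. The 9 differences ranged from -0.14 to 0.85 with a median of 0.28 on the log2 scale, beside a median of -0.24 over all tested genes (quartiles -1.003 and 0.55). Centring removed a shift of 1.502 between the assays. Without it the same genes were 1.36 to 2.35 higher in RPF, and the median of all tested genes was 1.26, so that a direction for a Polycomb gene holds only relative to the median of its library. Ring1 was not tested, since its mean mRNA level was under 1 FPKM.

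Among the 5 PRC2 genes, Suz12 had the highest difference, with RPF 0.74 above mRNA (SE 0.268, adjusted p 0.137 by limma, 95% interval 0.00 to 1.48). Ezh2 was at 0.43 (adjusted p 0.332, interval -0.35 to 1.20). Eed and Ezh1 were at 0.01 and -0.01, with intervals of -0.76 to 0.77 and -1.156 to 1.136, and Jarid2 was at -0.14 (-0.94 to 0.65). For these genes, a change of more than about 2-fold between RPF and mRNA lies outside the interval only for Eed and Jarid2, and on the lower side also for Ezh2 and Suz12. The sign of the differences of Eed, Ezh1 and Jarid2 turned under another scaling or without 1 library.

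Among PRC1 genes, Pcgf6 was at 0.85 (SE 0.364, adjusted p 0.179 by limma, 95% interval -0.15 to 1.85) and Rnf2 at 0.71 (SE 0.252, adjusted p 0.133, interval 0.01 to 1.40). Kdm2b was at 0.28 (interval -0.62 to 1.18). Cbx7 was at 0.03 with an interval of -2.76 to 2.82, so its difference could not be measured. The value of Cbx7 was decided by a single library: it was 1.41 without Ribo-seq replicate 2 and -1.42 without Ribo-seq replicate 1, with adjusted p of 0.0211 and 0.0223 in limma, in opposite directions.

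**Figure D3:**
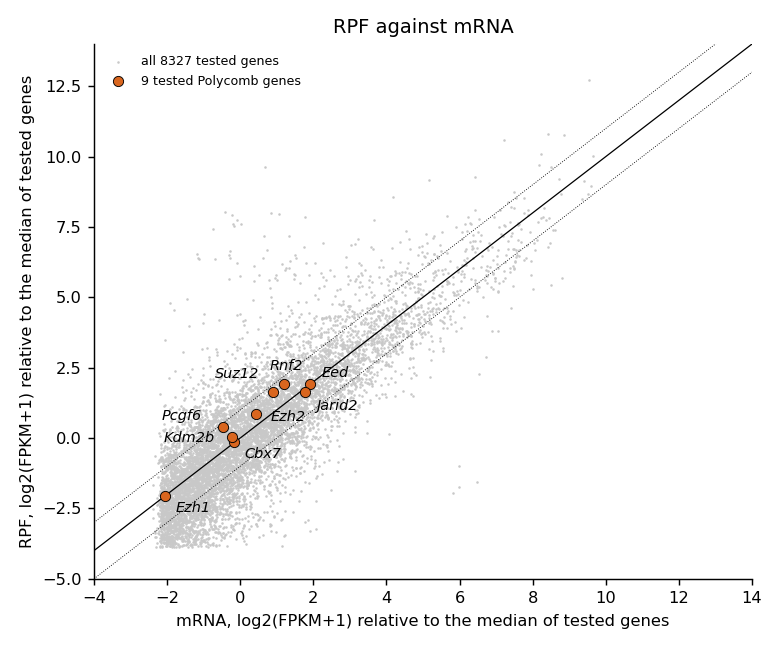
RPF against mRNA for the 8327 tested genes (grey), each as log2(FPKM+1) relative to the median of its assay and averaged over 2 replicates, with the 9 tested Polycomb genes in orange. The solid line is equality and the dotted lines are a log2 difference of 1 either way. All 9 Polycomb genes lie between the dotted lines.

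The sequence around the annotated start codon was read for each gene, since it is a feature of the mRNA that ribosomes meet. Shown are 10 bases before the start codon, the start codon in capitals and the next 3 bases, from the coding strand of GENCODE transcripts on NCBIM37, for the genes with the highest differences and for Eed and Jarid2 near 0.
Pcgf6: gatccccgccATGgac
Suz12: aggaaccgcgATGgcg
Rnf2: aggagccgaaATGtct
Eed: gcggaggaacATGtcc
Jarid2: ggatctcagaATGagc
These are at chr19:47125304-47125319 (minus strand, exon 1) for Pcgf6, chr11:79806812-79806827 (plus strand, exon 1) for Suz12, chr7:97129030-97129045 (minus strand, exon 1) for Eed and chr13:44827231-44827246 (plus strand, exon 1) for Jarid2. The stretch of Rnf2 crosses an exon junction. A purine 3 bases before the start together with a G after it (ANNATGG or GNNATGG, read on the coding strand only) was present in 5 of the 10 genes (Ezh2, Ezh1, Suz12, Pcgf6 and Kdm2b), or 50%, beside 41.6% of 19427 annotated genes. Rnf2, with a difference of 0.71, lacked it. Among genes with differences near 0, Ezh1 (-0.01) had it, whereas Eed (0.01), Cbx7 (0.03) and Jarid2 (-0.14) lacked it. A tie between this sequence and the differences was not tested.

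The remaining subunits put the 10 genes in context. The PRC2 core list adds the histone-binding proteins Rbbp7 and Rbbp4, which also belong to other chromatin complexes. Both were above Eed in RPF, and Rbbp7 was above it in mRNA too, at 95.3 and 120.1 FPKM in mRNA and 402 and 236 FPKM in RPF. Rbbp4 was at 29.3 and 28.2 FPKM in mRNA and 212 and 203 FPKM in RPF and was the only core gene called, 1.31 higher in RPF (SE 0.236, adjusted p 0.0467 by limma). The median difference of the core was 0.22. Of the 8 accessory genes and inhibitors, 6 were tested, 1 was called higher and none lower, with a median of -0.19. The one called was Aebp2, a PRC2 cofactor that binds nucleosomes, at 6.99 and 8.25 FPKM in mRNA and 76.6 and 58.0 FPKM in RPF (1.48 higher, SE 0.268, adjusted p 0.0472). Mtf2, a Polycomb-like protein that recruits PRC2 to CpG islands, had the highest level of the accessory genes in both assays, at 93.1 and 86.2 FPKM in mRNA and 118 and 101 FPKM in RPF. Its difference was -1.22 with an adjusted p of 0.0525 and so missed the threshold. Phf1 and AU022751, the gene of the PRC2 inhibitor EZHIP, were listed at 0 in both Ribo-seq replicates and reached at most 0.469 FPKM in RNA-seq.

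Among PRC1 lists, no Pcgf gene was called. The 6 were tested with a median of -1.54, and 5 of them had under 3 footprints in at least 1 replicate. Pcgf6 was the exception, with the highest difference and the most footprints of the family. Polycomb Cbx genes other than Cbx7 had mean mRNA levels under 1 FPKM and were not tested. Of the 5 polyhomeotic and SAM-domain genes of canonical PRC1, 3 were tested and none was called (median -2.22). Of the 5, 4 had under 3 footprints in at least 1 replicate, including the tested Phc2 (3.05 and 0) and Scmh1 (2.08 and 0). The median thus rests on values that are not read here as levels. Phc1 had the highest RPF at 2.10 and 4.62 FPKM (2.99 and 5.99 footprints), and Scml2 was listed at 0 in all 4 libraries. Of the 16 partners of variant PRC1, 15 were tested, with a median of 0.02. Only Max, the partner of MGA in the Pcgf6 complex, was called, at 6.77 and 9.56 FPKM in mRNA and 209 and 263 FPKM in RPF (3.197 higher, SE 0.315, adjusted p 0.0232). In the 3 genes called higher, 22.5% (Rbbp4), 17.3% (Aebp2) and 15.6% (Max) of 28-base windows are repeated in the genome. The part of such reads in their calls was not tested. Max also has a short coding sequence of 483 bases, and the part of the effective length in its call was not tested. Skp1a, which also serves the SCF ubiquitin ligases, was the most abundant at 606 and 637 FPKM in mRNA, with a difference of 0.02, whereas E2f6 had 1.00 and 0 footprints, too few to be read as a level.

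Polycomb marks are removed by histone demethylases and deubiquitinases. Of the H3K27 demethylases, Kdm6b was called lower (-1.53, SE 0.235, adjusted p 0.0376 by limma) at 6.45 and 6.62 FPKM in mRNA and 6.72 and 6.10 FPKM in RPF, and Kdm6a was at -0.69 and not called. Of 6 genes for deubiquitinases of H2AK119 and their cofactors, 5 were tested, 2 were called lower and none higher, with a median of -1.03. Usp16 was called lower (-1.84, SE 0.289, adjusted p 0.0386), with 19.7 and 27.2 FPKM in mRNA and 17.2 and 19.01 FPKM in RPF. Asxl2 was also called lower (-2.02, SE 0.250, adjusted p 0.0293), but its RPF rests on 3.10 and 2.07 footprints. Usp16 also had the highest RPF of the list, and Asxl3 was listed at 0 in all 4 libraries. Over all 56 complex and eraser genes, 45 were tested, 3 were called higher and 3 lower, beside the 6.65% higher and 5.31% lower of all tested genes, so calls were about as frequent as in the background. Their median was -0.22, close to the -0.24 of all tested genes. No gene of the whole table was called after leaving out either RNA-seq library, so all 6 of these calls were lost there. With no filter on low values, which leaves the shift between the assays in place, Kdm6b was at 0.34 and Usp16 at 0.02, so both lower calls hold only relative to the median.

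**Figure D4:**
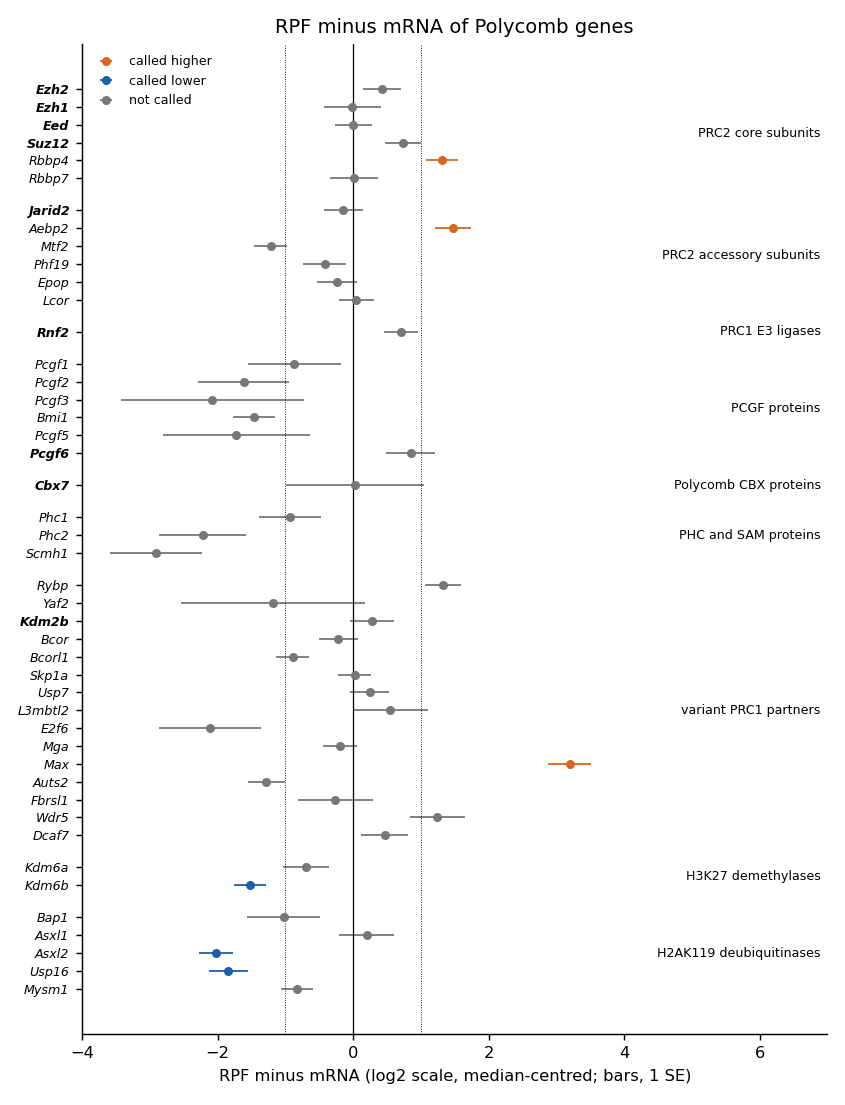
RPF minus mRNA on the log2 scale, after median centring, for the tested genes of each Polycomb list (bars, 1 SE from limma, 2 libraries per assay). Orange is called higher, blue called lower and grey not called, and the 9 tested genes described here are in bold. Max lies farthest to the right at 3.197, and the called genes Kdm6b, Usp16 and Asxl2 lie to the left of -1.

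Within each paralog family, the assays gave the same leading gene for the EZH and RING1 pairs. In the PCGF family the leading gene by FPKM differed, on few footprints. In mRNA, Pcgf1 had the largest share of the summed PCGF level, at 33.3% and 39.4%, with Pcgf6 at 27.2% and 15.3%. In RPF, Pcgf6 had 46.2% and 54.4% and Pcgf1 had 36.7% and 15.7%. The replicate ranges of the Pcgf6 share did not overlap between the assays, with 2 libraries in each. An exact permutation test of 2 against 2 libraries cannot go below a two-sided p of 0.333, and the difference was not tested. Pcgf1 RPF rested on 9.63 and 2.14 footprints, the latter under the floor of 3, and 50.2% of the Pcgf1 windows are repeated in the genome. Pcgf3, Pcgf5 and Pcgf2 were each at 0 in a Ribo-seq replicate. The change of leading gene and the RPF shares are therefore uncertain. Cbx7 made up 80.2% and 81.7% of the summed level of the 5 Polycomb Cbx genes in mRNA, and 64.2% and 29.98% in RPF. Cbx2 had 4.06% and 4.48% in mRNA and 15.8% and 36.2% in RPF, the latter from 10.99 and 5.99 footprints. Thus the lead of Cbx7 was clear in mRNA only. In Ribo-seq replicate 1, Cbx7 led by FPKM but not by footprints, with 9.09 against 10.99 for Cbx2. The lead was not seen in Ribo-seq replicate 2, where Cbx7 had about 1 footprint.

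**Figure D5:**
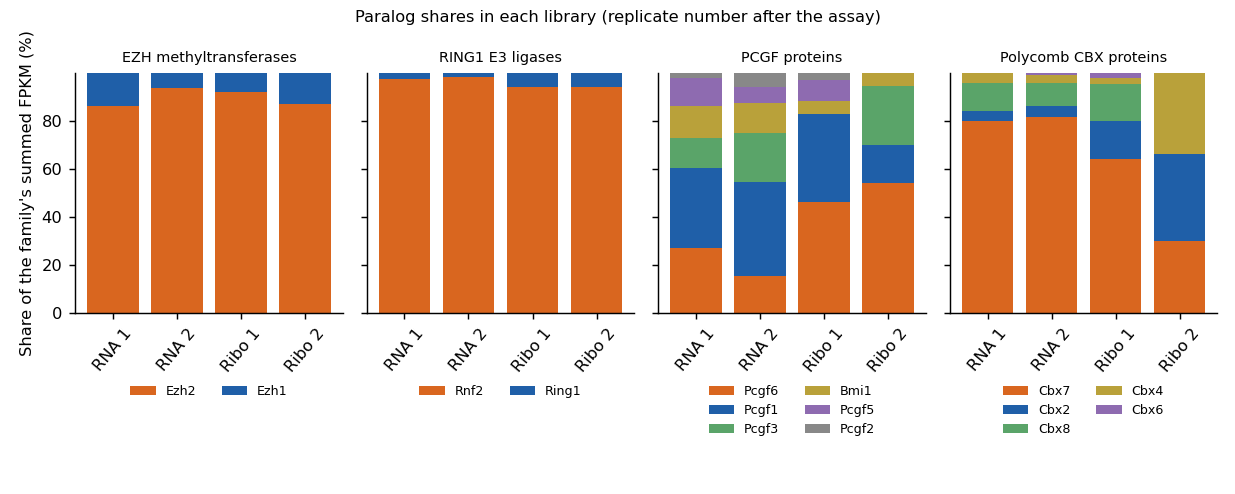
Share of each paralog in the summed FPKM of its family, in percent, for each of the 4 libraries. Ezh2 and Rnf2 fill most of their pairs in every library, Pcgf6 takes 27.2% and 15.3% of the PCGF family in RNA-seq and 46.2% and 54.4% in Ribo-seq, and Cbx7 takes 80.2% and 81.7% in RNA-seq but 29.98% in Ribo-seq replicate 2.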

How the data were processed

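Libraries of mouse blastocysts from RNA-seq and Ribo-seq (2 replicates each) were grouped by assay from their labels. The authors deposited FPKM per gene. According to their notes and methods, reads were trimmed (Trim Galore 0.4.2, cutadapt 1.14), rRNA reads of Ribo-seq were discarded (Bowtie2 2.2.2), the rest were mapped to mm9 with STAR 2.5.3a with at most 20 places per read, and Cufflinks 2.2.1 gave FPKM over transcripts or, for Ribo-seq, coding regions. Where a symbol was repeated, its highest value was used. RPF minus mRNA was fitted with limma 3.58.1 (R 4.3.3; two-sided, moderated by empirical Bayes, Benjamini-Hochberg adjustment over all tested genes) on log2(FPKM+1). With 2 residual degrees of freedom, its p-values measure only the spread between these libraries, which may be technical, since separate embryo pools are not stated. A fold change on this scale understates that of low genes.

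Whole fragments were derived from FPKM steps with the Cufflinks effective length (mean 200, SD 80 bases) and GENCODE vM1 coding lengths on NCBIM37; 62.6% to 82.4% of low values came within 0.1 of a whole number. Intervals on footprints (95%, exact Poisson) and the floor of 3 cover counting error only. Each gene used its first GENCODE model if complete, otherwise its longest complete coding sequence. Windows of 28 bases were counted in the genome, although the authors mapped to the transcriptome. All shares of repeated windows are over the windows found in the genome, which leaves out those across exon junctions. Comparisons between paralogs used all windows. Other steps used Python 3.11.15, numpy 2.4.6, pandas 2.3.3, scipy 1.17.1, numba 0.67.0 and matplotlib 3.10.9, and the steps were tested on simulated data. The data simulated for the limma fit had more even spreads between genes than the real data and no low levels. Their rate of false calls therefore does not carry over to these data.

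The members and lists were chosen with earlier results of these data known. Named beside the 10 members were list genes that were called, those with the highest and lowest RPF of a list, those at 0 in all libraries, and paralogs in the family shares. Alternatives covered the pseudocount, filters, scaling, repeated symbols, a replicate block, limma-trend and each library left out.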

Additional observations from a re-analysis of the deposited data

How the results depend on the processing

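Levels were unchanged with the mean of repeated symbols, and with 1 of 2 replicates left out a level or share cannot move past their SD. The number of all genes called higher in RPF (554) was 308 with a pseudocount of 0.1, 5330 with no filter, 4113 without centring and 861 with limma-trend. The number called lower (442) was 154, 158, 65 and 716 under these settings, 751 with a minimum of 5 FPKM and 884 with libraries scaled to the same sum. With 1 library left out, the counts ran from 0 to 1187 higher and from 0 to 1647 lower; they were 0 without either RNA-seq library and rose without either Ribo-seq library, where the lone library is assumed to vary like the others. Without a filter, 9 of the 10 Polycomb genes were called higher, Ring1 included, beside 5330 of all 20714 genes. Without centring, 8 of the 9 tested were called higher, beside 4113 of all 8327 genes. Cbx7 was not called in either setting. Both settings leave most of the shift between the assays in place. With 1 library left out, 0 to 1 was called higher and 0 to 1 lower, which was Cbx7 both times.

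Signs that turned were those of differences near 0 (Ezh1, Eed, Jarid2 and Cbx7) and that of Kdm2b, at 0.28 in the main fit. Ezh1 was at 0.44 with a pseudocount of 0.1, 1.86 with no filter, 0.06 with a filter on either assay, 1.49 without centring, 1.10 after quantile normalization, 0.16 with the same sum and -0.46 to 0.37 with a library left out. Eed was at -0.07 with a pseudocount of 0.1, -0.04 with a minimum of 5 FPKM, -0.19 after quantile normalization, -0.38 with the same sum and -0.20 to 0.21 with a library left out. Jarid2 was at 1.72 with no filter, 1.36 without centring and -0.42 to 0.07 with a library left out. Cbx7 was at -0.02 with a minimum of 5 FPKM, -0.23 with the same sum and -1.42 to 1.41 with a library left out, and Kdm2b at -0.05 to 0.54 with a library left out. Differences that kept their sign also moved: with the same sum, Ezh2 was at 0.10, Suz12 at 0.38, Rnf2 at 0.34 and Pcgf6 at 0.59, and with a library left out Ezh2 ran from 0.24 (without RNA-seq replicate 1) to 0.61 and Pcgf6 from 0.53 (without RNA-seq replicate 2) to 1.18. Except for the shifts of the uncentred and unfiltered settings, the cause was not tested.

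With the replicate number as a block, 0 genes were called higher and 0 lower. The numbers share no stated embryo pool. The deviations of same-numbered libraries were uncorrelated across genes (r = 0.00994 over 8327 genes). That value does not decide whether they share embryos, since noise within each library also leaves deviations uncorrelated. The main fit, with 554 genes called higher and 442 lower, therefore rests on treating the libraries as unpaired. Depth limits Ezh1, Ring1 and Cbx7 most, and with 2 libraries per assay smaller differences than those called could not be shown.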

Other observations

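Genes that are known to be silenced on the maternal allele by H3K27me3 inherited from the oocyte were expressed in the blastocysts. Of the 6 listed, Slc38a4, an amino acid transporter, was at 42.9 and 38.7 FPKM in mRNA and had the highest RPF, at 178 and 161 FPKM. Smoc1 had the lowest RPF of those in both assays, at 22.6 and 8.91 FPKM, with mRNA at 0.958 and 1.49 FPKM. None of the 5 that were tested was called in RPF minus mRNA (median 0.52), and the alleles were not separated here. Xist, a noncoding RNA listed in RNA-seq only, is counted among the 6.

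Hox genes are classic Polycomb targets. Of 39 Hox symbols, 19 were at 0 in all 4 libraries. A mean mRNA level of at least 1 FPKM was reached by 2, and 8 had RPF above 0 in 1 replicate only. Over all symbols, the median level was 0.0395 and 8.4e-203 FPKM in the RNA-seq replicates and 0 in both Ribo-seq replicates. Values at or near 0 were therefore common, and silencing of Hox genes was not tested. A single Hox gene, Hoxd8, had RPF above 0 in both replicates, at 15.3 and 16.9 FPKM; it was chosen after its values were seen.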
